A study of Mus musculus with 12 samples.

Results

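The genes described here were 9 transporters that carry drugs, bile constituents and other organic anions across the membranes of liver cells: Slco1a4, Slco1b2, Slco2a1, Slco2b1, Slc22a7, Abcc2, Abcc3, Abcb4 and Abcg2. They were taken by symbol from the 53465 genes of a read count table of mouse liver, and each matched 1 identifier. The rule names genes and uses no measured value, but it was drawn up with earlier results of these data known. All 9 were detected in all 12 livers, with between 89 and 13971 reads per gene and liver. The livers came from C57BL/6N mice, 4 young animals of 3 months, 4 middle-aged animals of 12 months and 4 aged animals of 18 months, and the labels give each sample as 1 animal. The series text gives 3 replicates per age where 4 samples are labelled, and all 4 were used. The study's methods describe male mice on a standard rodent diet, fed ad libitum, and name no treatment or genetic change. The label text describes RNA from young and old livers only and the study also used a public atlas of bulk RNA-seq, so how the 12 libraries were made is uncertain.

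The liver clears drugs, hormones, bilirubin and bile acids from blood in steps. Carriers of the organic anion transporting polypeptide (SLCO) and SLC22 families bring substrates into the hepatocyte through the sinusoidal membrane, which faces the blood. ATP-driven pumps of the ABC family then export conjugates, phospholipids and drugs through the canalicular membrane into bile, and other ABC pumps return conjugates to the blood. Several of these genes are known targets of the nuclear receptors CAR (Nr1i3) and PXR (Nr1i2) and of the antioxidant response factor Nrf2 (Nfe2l2).

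The members lie on 7 chromosomes. Positions are those of the GENCODE M21 annotation of GRCm38. Slco1b2 (chr6:141629518-141686646, plus strand) and Slco1a4 (chr6:141805440-141856199, minus strand) belong to the Slco1 gene cluster, 118.8 kb apart, and Slco1a1, another uptake carrier, lies 51.1 kb beyond Slco1a4. Abcg2 (chr6:58584523-58695676, plus strand) is on the same chromosome, far from the cluster. Abcb4 (chr5:8893717-8959231, plus strand) lies 27.4 kb from the drug efflux gene Abcb1b. The others are Slco2b1 (chr7:99657804-99711340, minus strand), Slco2a1 (chr9:102988712-103096002, plus strand), Abcc3 (chr11:94343295-94392997, minus strand), Slc22a7 (chr17:46432183-46438457, minus strand) and Abcc2 (chr19:43782192-43840740, plus strand). All are protein-coding, with between 11 and 32 merged exons and a summed exon length between 2101 bases (Slc22a7) and 13545 bases (Slco2a1).

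Reads of near-identical genes can be split differently by the counting, so shared sequence was measured over all stretches of 50 bases in each gene's transcripts. Slc22a7, Abcc3 and Slco1b2 shared none with another gene. Slco1a4 shared 1.61%, including stretches of Slco1a1, Slco1a5 and Slco1a6, and Abcb4 shared 2.87%, including stretches of Abcb1a and Abcb1b. Slco2b1 shared 5.89%, with 2 other genes. The antisense genes Gm15635 and Gm34280 overlap 549 of the exonic bases of Slco2b1 and held 39 and 27 reads summed over the 12 livers.

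The stretches before the starts of 3 members are shown, because Abcc2 was one of the members that differed with age, and because Slco1b2 and Slco1a4 are neighbors in one cluster at very different levels. The sequences are from RefSeq (GRCm38.p6), 5′ to 3′ on the gene's strand. Capitals mark matches, on either strand, to the TATA box (TATAAA) and to letters tied to liver or stress regulators. The latter are AGGTCA (a nuclear receptor half-site), GTTAAT (an HNF1 half-site), TGACNNNGC (the core of the antioxidant response element) and TTATGTAA (the D-box).
Slco1b2, chr6:141629268-141629517: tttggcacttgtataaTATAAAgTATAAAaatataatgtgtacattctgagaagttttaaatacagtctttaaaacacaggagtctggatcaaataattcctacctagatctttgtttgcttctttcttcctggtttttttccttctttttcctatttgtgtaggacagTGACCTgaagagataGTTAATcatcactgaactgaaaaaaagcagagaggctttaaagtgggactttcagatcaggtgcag
Slco1a4, chr6:141856221-141856470: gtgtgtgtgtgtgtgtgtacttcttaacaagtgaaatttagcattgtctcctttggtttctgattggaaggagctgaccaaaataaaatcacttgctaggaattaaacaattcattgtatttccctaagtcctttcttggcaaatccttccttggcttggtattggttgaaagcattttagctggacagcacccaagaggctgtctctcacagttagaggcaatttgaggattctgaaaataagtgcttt
Abcc2, chr19:43782058-43782191: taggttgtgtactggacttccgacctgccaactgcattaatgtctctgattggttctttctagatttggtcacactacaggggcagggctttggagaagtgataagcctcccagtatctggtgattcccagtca
For Abcc2 the stretch stops at the GENCODE start, which lies 116 bases before the RefSeq start. Between both starts the search found 2 matches, printed here with the bases around them.
Abcc2, chr19:43782200-43782229: ctcactgggaTGACATAGCattcatctagc
Abcc2, chr19:43782247-43782276: tgtcaggatgaaAGGTCAggagacttgcct
Of 32544 mouse promoter windows of 250 bases, 10.2% held TGACNNNGC, 14% AGGTCA, 12.3% TATAAA, 6.47% GTTAAT and 0.811% TTATGTAA. The Slco1b2 window held 2 TATAAA, 1 AGGTCA on the opposite strand and 1 GTTAAT, none overlapping another, and the Slco1a4 window held none of the letters searched. The 2 TATAAA of Slco1b2 began at positions -234 and -227 from the gene's start. A match is a description of the letters and not evidence that a factor binds there. No promoter entries were used for Abcc3 and Slc22a7.

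To compare levels between genes, normalized read counts (counts divided by the size factor of the liver) were divided by the exon length in kb. Slco1b2, the main hepatic uptake carrier of this family in the mouse, stood highest at 2263 ± 259 normalized counts per kb (mean ± SD, n = 12), above 97.6% of the 8888 genes with a mean normalized count of at least 50. Abcc2, the canalicular pump for bilirubin and drug conjugates, followed at 378 ± 82.9, then Slc22a7, a sinusoidal organic anion carrier, at 320 ± 113 and Abcc3, the pump that returns conjugates to blood, at 279.6 ± 87.0. Abcb4, which moves phosphatidylcholine into bile, stood at 185 ± 26.7, and Slco2b1, a sinusoidal anion carrier, at 162 ± 20.3. The canalicular drug pump Abcg2 stood at 88.0 ± 10.4, the prostaglandin carrier Slco2a1 at 46.5 ± 5.92 and the anion and steroid carrier Slco1a4 at 31.7 ± 12.3, above only 34.7% of genes.

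The highest level per kb was 5.99 times the next one, and no liver's value for Slco1b2 reached the range of Abcc2. The ranges over the 12 livers were also separate between Slco2b1 and Abcg2 and between Abcg2 and Slco2a1. The ranges of the other neighbors in this order overlapped. Abcc3 was above Abcb4 in 11 of 12 livers, Abcb4 above Slco2b1 in 10 of 12, Slco2a1 above Slco1a4 in 9 of 12, Abcc2 above Slc22a7 in 8 of 12 and Slc22a7 above Abcc3 in 7 of 12. The plot of levels per kb shows the steps and the overlaps.

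**Figure D1:**
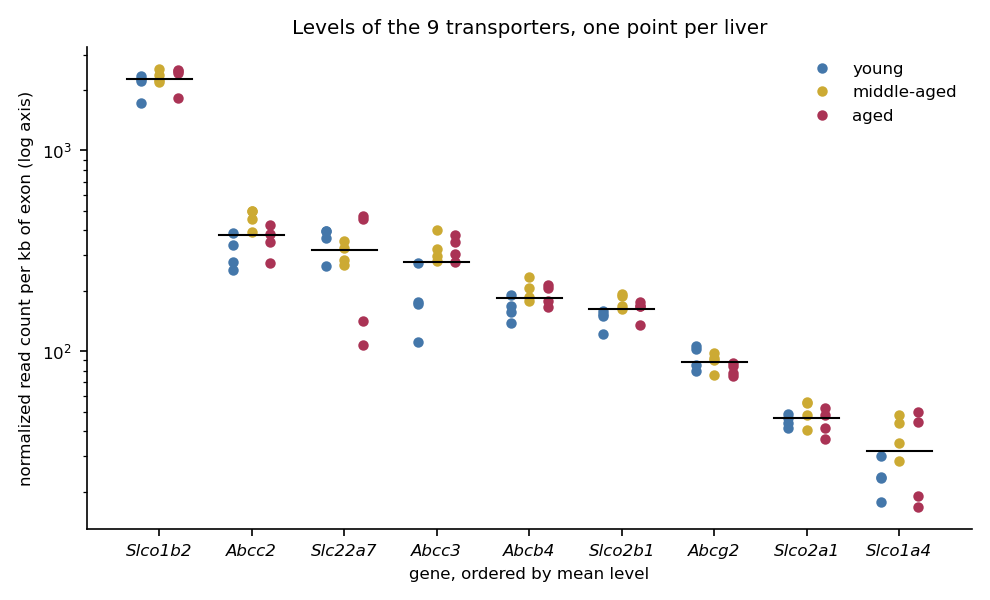
Levels of the 9 transporters as normalized read counts per kb of exon on a log axis, 1 point per liver colored by age, with a black line at the mean of 12 livers. Slco1b2 lies above all others without overlap, and the points of Slc22a7, Abcc3 and Slco1a4 are spread most widely.

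The members also differed in how much they varied between livers. The coefficient of variation over the 12 livers was 38.7% for Slco1a4, 35.2% for Slc22a7 and 31.1% for Abcc3, higher than in 95.4%, 94.3% and 92.2% of the 8888 genes. It was 22% for Abcc2, above 80.8% of genes. For Abcb4, Slco2a1, Slco2b1, Abcg2 and Slco1b2 it was between 11.5% and 14.4%, with 28.3 to 48.4% of the 8888 genes below them. Summed over the 9 members, normalized counts were lowest in young replicate 2, at 15435, and highest in middle-aged replicate 2, at 24699. Slco1b2 made up between 50% and 57.7% of that sum in every liver.

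Counts assigned to genes ranged from 8124312 to 10527159 per liver. Young replicate 3 and middle-aged replicate 1 had 22284 and 19982 genes with a read, against 16361 to 17563 in the others, and young replicate 2 had 19.2% mitochondrial reads, against 5.48 to 10.68%. These 3 libraries are called the libraries that stand apart. Synthetic spike-in RNAs split the libraries by replicate number: over 31 spike-ins, replicates 1 and 2 of all ages correlated at 0.997 or more with one another, as did replicates 3 and 4, and at most at 0.925 across that divide. The labels name no batch, and these are called the first set (replicates 1 and 2) and the second set (replicates 3 and 4). Young replicate 2 held the lowest value of 5 of the 9 members (Slco1b2, Slco2b1, Abcc2, Abcc3 and Abcb4), and middle-aged replicate 2 the highest of the same 5.

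The tissue was checked with marker genes. The 8 hepatocyte markers had a mean normalized count of at least 50 and summed to between 757811 and 1020112 in a liver, while the 9 endothelial markers summed to between 1719 and 2908. Slco2a1 is known mainly from endothelial and other non-parenchymal cells, so its place among hepatocyte transporters is not shown by whole-liver counts. In whole tissue, fewer cells of a type and less RNA per cell cannot be told apart. No marker in the 9 lists of cell type and zone markers was at 0 in all 12 livers.

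The ages were compared to ask how transporter transcripts differ along the lifespan. A gene was called where the DESeq2 adjusted p, over all genes tested, was under 0.05. The transporters that changed by this test were 2 export pumps, Abcc2 and Abcc3. Abcc3 was 1.77-fold higher in middle-aged and 1.78-fold higher in aged than in young livers. Abcc2 was 1.47-fold higher in middle-aged than in young livers, and was not called between aged and young (log2 0.188, DESeq2 adjusted p = 0.619). None of the 5 uptake carriers and neither Abcb4 nor Abcg2 was called by this test between any pair of ages, but some uptake carriers were under other settings. Slco1a4 was called by edgeR on all genes with a count, where its prior degrees of freedom were infinite, in aged (adjusted p = 0.0355) and middle-aged livers (adjusted p = 4.99e-05) against young ones. DESeq2 with only both ages fitted called it in middle-aged against young livers (adjusted p = 0.0139).

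Of the 9 members, 1 was called between aged and young (11.1%), against 3.58% of all genes tested, and it was higher in aged, as were 1.87% of all genes. In middle-aged against young livers 2 were called (22.2%), against 6.41% of all genes, both higher in middle-aged, as were 3.51% of genes. Between aged and middle-aged none was called by DESeq2, against 1.14% of genes, with 1 member at an unadjusted p under 0.05. The likelihood ratio test across the 3 ages called 2 (22.2%), against 6.96% of genes. The background itself moved with single livers: between aged and young DESeq2 called 484 genes as reported, 1291 without aged replicate 1, 258 without young replicate 2, 237 without aged replicate 3 and 321 without aged replicate 4. With 9 members, 1 gene more or less moves these shares by 11.1 percentage points, and edgeR on genes with at least 10 reads in at least 4 livers called 0 of the 9 in each of the 4 comparisons, while limma voom on those genes called 1, 2 and 0 in the 3 pairs.

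Between aged and young the members' values did not overlap for 1 gene (Abcc3), against 8.44% of the 8888 genes with a mean of at least 50. They did not overlap between middle-aged and young for 3 (Abcc2, Abcc3 and Slco2b1), against 18.3% of those genes, and between aged and middle-aged for 0, against 6.82%. The members' median log2 fold change was 0.15 between aged and young, 0.28 between middle-aged and young and -0.14 from middle-aged to aged, beside medians of 0.014, 0.004 and 0.007 over the 8888 genes. In the comparison of middle-aged with young 7 of 9 members were above 0, and in that of aged with middle-aged 1 of 9. The comparisons share groups and are not independent of each other.

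**Figure D2:**
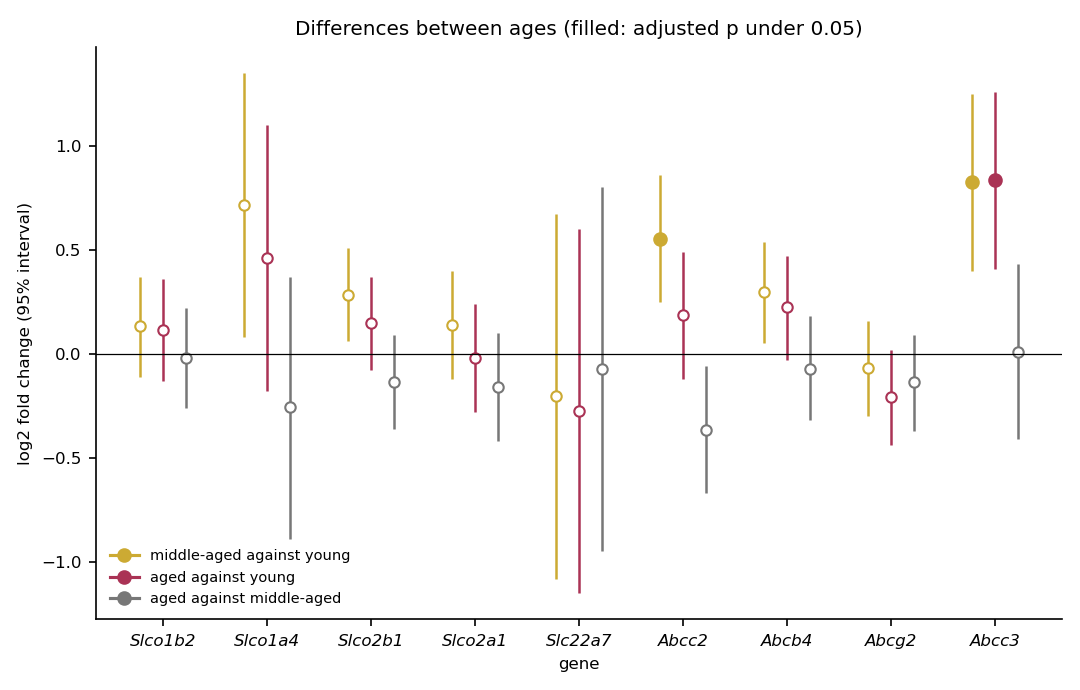
Log2 fold change of each transporter for the 3 pairs of ages, with its 95% interval from the DESeq2 standard error, and filled symbols where the adjusted p was under 0.05. Filled symbols appear for Abcc3 in both comparisons with young, at 0.83 and 0.825, and for Abcc2 between middle-aged and young, at 0.55.

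Among the sinusoidal uptake carriers, Slco1b2 was the most abundant and the least variable over the 12 livers. Its normalized counts in the 4 young livers were 11566, 8443, 10973 and 11131, in the middle-aged livers 11699, 12543, 11087 and 10839, and in the aged livers 8969.9, 12347, 12032 and 12212. One young and one aged liver stood below the rest, and the groups overlapped. The log2 fold change was 0.11 (95% interval -0.13 to 0.36) for aged against young and 0.13 (-0.11 to 0.37) for middle-aged against young, with DESeq2 adjusted p of 0.735 and 0.58.

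Slco1a4 takes up bile salts, steroid conjugates and cardiac glycosides. Its normalized counts in young livers were 152, 113, 149 and 192, in middle-aged livers 183, 310, 223 and 282, and in aged livers 107, 122, 284 and 321. The middle-aged livers were mostly above the young ones, with 1 of them inside the young range, and the aged livers fell into a low pair, with 1 liver below the young range and 1 inside it, and a high pair above it. The difference was 0.715 on the log2 scale for middle-aged against young (SE 0.324, 95% interval 0.08 to 1.35, DESeq2 adjusted p = 0.167) and 0.46 for aged against young (SE 0.324, adjusted p = 0.538). The SD in aged livers was 109.5 counts, against 32.3 in young and 57.2 in middle-aged livers.

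Slco2b1 carries steroid sulfates and statins among other anions. Normalized counts of Slco2b1 were 943, 725, 896 and 917 in young livers, 1117, 1154, 997 and 967 in middle-aged livers and 802, 1049.9, 1003 and 998 in aged livers. All middle-aged livers were above all young livers, by a fold of 1.22, but the difference was not called by DESeq2 (log2 0.28, SE 0.114, adjusted p = 0.115). The aged livers overlapped with both other groups. Without aged replicate 1, which is in neither group, the same difference between middle-aged and young was called (adjusted p = 0.045).

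Slco2a1 takes up prostaglandins. Normalized counts of Slco2a1 were 660, 564, 627 and 598 in young livers, 547, 650.0, 747 and 755 in middle-aged livers and 652, 703, 562 and 498 in aged livers. The groups overlapped in every pair, and the 95% interval of the log2 fold change was -0.28 to 0.24 for aged against young and -0.12 to 0.40 for middle-aged against young. The direction between aged and young depended on the scaling, with a log2 fold change of -0.02 as reported, 0.003 with TMM factors and 0.09 with total gene counts. The 9 endothelial markers summed to 1719 to 2908 in the young group, 1869 to 2183 in the middle-aged group and 1975 to 2208 in the aged group.

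Slc22a7 (OAT2) exchanges organic anions such as orotate and nucleotides across the sinusoidal membrane. Its normalized counts were 765, 834, 831 and 560.4 in young livers, 685, 567, 745 and 598 in middle-aged livers and 995, 952, 226 and 298 in aged livers. The first 2 aged livers were above every young and middle-aged liver, and the other 2 were below all of them. The aged mean of 618 ± 412 (SD, n = 4) did not differ from the young mean of 748 ± 129 by the DESeq2 test (log2 -0.28, 95% interval -1.15 to 0.60, adjusted p = 0.844).

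Of the canalicular pumps, Abcc2 (MRP2), which exports bilirubin glucuronides and glutathione conjugates into bile, changed with age. Its normalized counts were 3295, 2175, 2379 and 2870.2 in young livers, 3334, 4267, 3891 and 4241 in middle-aged livers and 2343, 3270.2, 3612 and 2989 in aged livers. Every middle-aged liver was above every young liver, with middle-aged replicate 1 and young replicate 1 nearly level, and the aged livers overlapped with both. The mean was 3934 ± 435 in middle-aged and 2679.9 ± 503 in young livers (SD, n = 4 each), a log2 difference of 0.55 (SE 0.155, DESeq2 adjusted p = 0.0121). The aged mean was 3054 ± 538, which gave 0.19 on the log2 scale against young (adjusted p = 0.619) and -0.365 against middle-aged (SE 0.155, adjusted p = 0.329). The likelihood ratio test over the ages gave a DESeq2 adjusted p of 0.0242.

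In the spike-in sets taken alone, with 2 livers per age, the middle-aged livers were above the young ones by 0.475 in the first (DESeq2 adjusted p = 0.534) and by 0.62 in the second (adjusted p = 0.000582). The call of Abcc2 rested on single livers. The DESeq2 adjusted p between middle-aged and young rose to 0.0753 without young replicate 2, 0.0701 without young replicate 3, 0.0613 without middle-aged replicate 2 and 0.0556 without middle-aged replicate 4. It was 0.371, at a log2 difference of 0.42, without the 3 libraries that stand apart, and 0.0681 by edgeR on filtered genes. Across the 3 ages it was lost without any of these 4 livers or middle-aged replicate 3, with adjusted p between 0.0727 and 0.136.

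Abcb4 (MDR2) flips phosphatidylcholine into the canalicular leaflet. Normalized counts of Abcb4 were 1568, 1297, 1479.9 and 1794 in young livers, 1748, 2186, 1934 and 1667 in middle-aged livers and 1662, 2003, 1946 and 1556 in aged livers. The lowest middle-aged and aged livers lay inside the young range. The log2 difference was 0.295 (95% interval 0.05 to 0.54) for middle-aged against young and 0.22 (-0.03 to 0.47) for aged against young, with DESeq2 adjusted p of 0.141 and 0.397.

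Abcg2 (BCRP) exports sulfate conjugates, urate and many drugs. Normalized counts of Abcg2 were 838, 648, 698 and 868 in young livers, 802, 734, 754 and 621 in middle-aged livers and 612, 637, 712 and 686 in aged livers. The aged values lay in the lower part of the young range or below it. It was the one pump with a mean below that of young livers at both later ages, and neither difference was called (aged against young log2 -0.21, 95% interval -0.44 to 0.02, DESeq2 adjusted p = 0.394). Its direction between middle-aged and young was -0.07 as reported and 0.035 with total gene counts.

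Abcc3 (MRP3), in the sinusoidal membrane, returns glucuronides and bile salts from hepatocytes to blood. Its normalized counts were 1002, 636, 985 and 1573 in young livers, 1845, 2289, 1602 and 1703 in middle-aged livers and 1593, 1999, 2164 and 1729.7 in aged livers. Every middle-aged and every aged liver was above every young liver, although young replicate 4, at 1573, was nearly level with the lowest middle-aged and the lowest aged liver. The young mean was 1049 ± 388, the middle-aged mean 1859.7 ± 303 and the aged mean 1871 ± 258 (SD, n = 4 each). The log2 difference was 0.83 for aged against young (SE 0.216, DESeq2 adjusted p = 0.00745) and 0.825 for middle-aged against young (SE 0.216, adjusted p = 0.00607). Aged and middle-aged livers differed by 0.01 on the log2 scale, with a 95% interval of -0.41 to 0.43. The DESeq2 likelihood ratio test over the ages gave an adjusted p of 0.00439.

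The rise of Abcc3 between aged and young was called with either spike-in set alone, at 1.135 on the log2 scale in the first (DESeq2 adjusted p = 0.00034) and 0.60 in the second (adjusted p = 0.0371), with 2 livers per age. From young to middle-aged it was called in the first set (1.335, adjusted p = 3.88e-06) and not in the second (0.36, adjusted p = 0.397), and the interaction of age and set was not called (-0.97, SE 0.341, adjusted p = 0.368). Without aged replicate 3 the adjusted p between aged and young was 0.0551. Without the 3 libraries that stand apart the differences from young were 0.54 (adjusted p = 0.347) for aged and 0.53 (adjusted p = 0.379) for middle-aged livers, and edgeR on filtered genes gave adjusted p of 0.0702 and 0.0584 for the 2 comparisons.

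**Figure D3:**
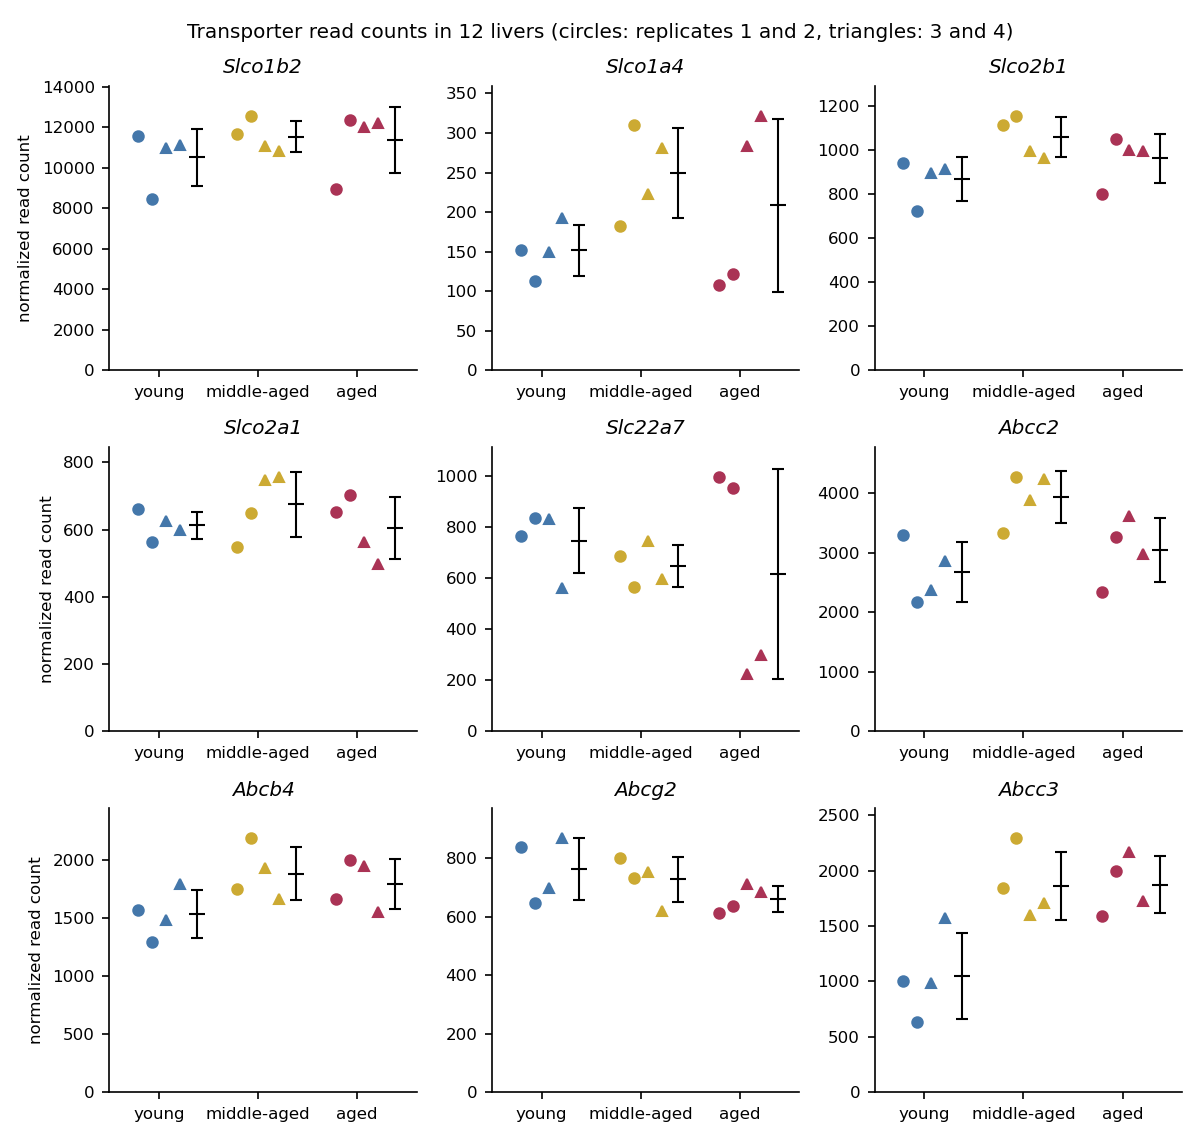
Normalized read counts of the 9 transporters in the 12 livers, circles for replicates 1 and 2 and triangles for replicates 3 and 4, with the mean and SD of each age (n = 4) in black beside the points. All middle-aged and aged livers lie above the young ones for Abcc3, and the aged livers form separate pairs for Slc22a7 and Slco1a4.

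**Figure D4:**
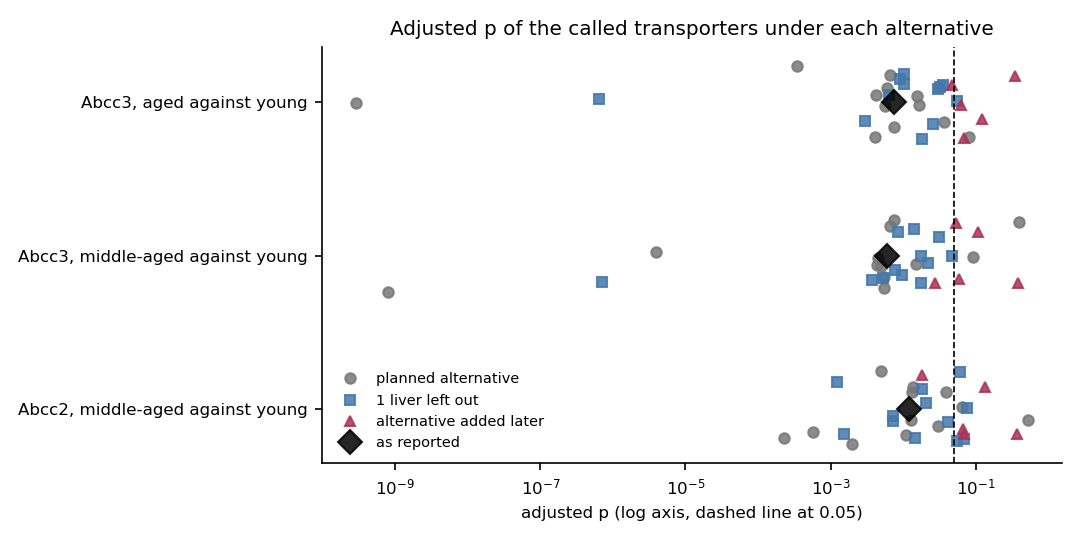
Adjusted p (log axis) of Abcc3 and Abcc2 in the comparisons in which they were called, as reported (black diamond) and under 29 alternatives each (gray circles for other settings, blue squares for 1 liver left out, red triangles for alternatives chosen after seeing the data), with the dashed line at 0.05. Between aged and young 23 of 29 alternatives called Abcc3, and between middle-aged and young 23 of 29 called Abcc3 and 19 of 29 called Abcc2.

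The 2 aged pairs of Slc22a7 coincided with the spike-in sets. Aged against young, it differed by 0.29 on the log2 scale in the first set and by -1.41 in the second, where it was called (DESeq2 adjusted p = 6.02e-08), and the difference between these differences was -1.69 (SE 0.303, DESeq2 adjusted p = 2.06e-05). It was the 1 member of 9 called for this interaction, against 0.732% of all genes tested, and edgeR on filtered genes also called it (adjusted p = 0.0373). For middle-aged against young 0 of 9 members were called for the interaction by DESeq2, against 0.423% of genes, with 1 member (Abcc3) at an unadjusted p under 0.05. Slco1a4 had the opposite pattern to Slc22a7, with -0.21 in the first and 0.82 in the second set between aged and young, called in the second (DESeq2 adjusted p = 0.0323). Its interaction was not called (1.03, SE 0.414, adjusted p = 0.412), though edgeR on all genes called it (adjusted p = 0.0333).

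Within the aged group, a comparison made after these values were seen, Slc22a7 averaged 973 normalized counts in the first set and 262 in the second, a fold of 3.71 (DESeq2 adjusted p = 3.39e-15), and Slco1a4 averaged 115 and 303, a fold of 2.63 in the other direction (adjusted p = 0.000268). These were 2 of the 9 members, against 2.21% of all genes tested. Within the young and within the middle-aged livers no member was called between the sets by DESeq2, against 0.414% and 0.41% of genes, with 1 member in each (Abcc3 in young, Slco2a1 in middle-aged) at an unadjusted p under 0.05. Each of these tests compares 2 livers with 2, and the set and the animals in it cannot be told apart.

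**Figure D5:**
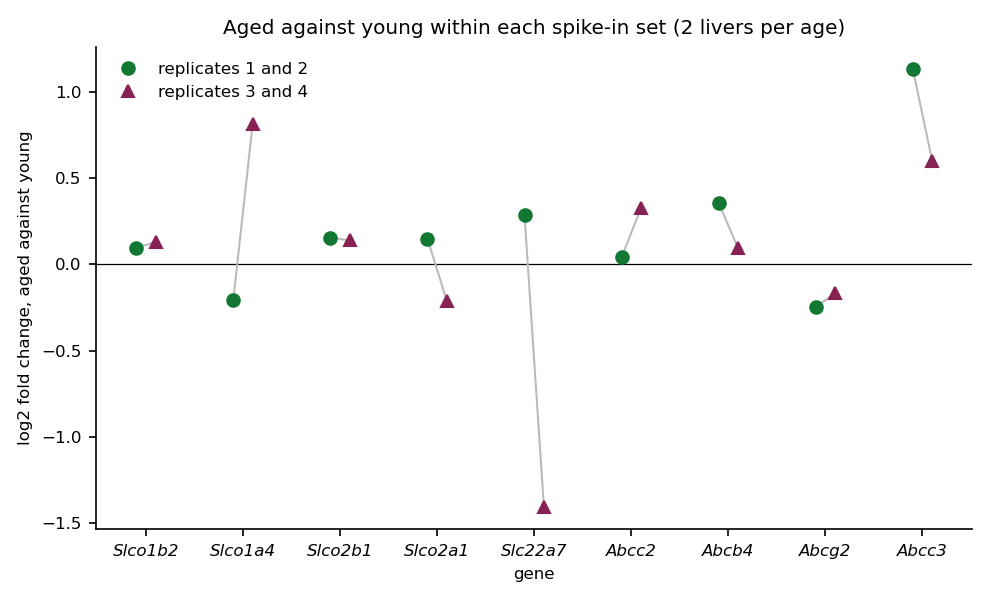
Log2 fold change of aged against young livers for each transporter in replicates 1 and 2 (circles) and in replicates 3 and 4 (triangles), 2 livers per age in each. The symbols of Slc22a7 lie farthest apart, at 0.29 and -1.41, followed by those of Slco1a4, at -0.21 and 0.82.

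The sets differed in the markers of stellate cells and fibroblasts. The 8 stellate cell and fibroblast markers summed to between 1596 and 2364 normalized counts in the first set and between 2903 and 4110.4 in the second, without overlap. The 6 periportal markers summed to between 71628 and 86419.7 in the first set and between 47944 and 80912 in the second, with overlap. The hepatocyte markers (757811 to 886877 and 779866 to 1020112), the endothelial markers (1869 to 2908 and 1719 to 2208) and the 5 blood cell markers (7409 to 60321 and 7488 to 36009.7) overlapped between the sets. So did the Kupffer cell markers (3083 to 6432 and 3413 to 4717) and the cholangiocyte markers (124.1 to 365.5 and 232.4 to 466.0). The lymphocyte markers (212.7 to 1514 and 394.4 to 2001) and the pericentral markers (58413 to 87355 and 64140.4 to 87195) overlapped as well. The part of these markers in the results of Slc22a7 and Slco1a4 was not tested.

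Some markers also moved with age. The blood cell markers, mostly hemoglobin transcripts, summed to 16895 to 60321 in the young group, 9752 to 36009.7 in the middle-aged group and 7409 to 15919.7 in the aged group, with Hbb-bs and Alas2 called lower in aged than in young livers by DESeq2. Ighm was called higher in middle-aged livers and Sox9, a cholangiocyte marker, higher in aged livers, both than in young ones. Ighm was the 1 called of 3 lymphocyte markers tested, and 1 of that list had a mean of at least 50. Sox9 was the 1 called of 6 cholangiocyte markers tested. The 4 of that list with a mean of at least 50 had a median log2 fold change of -0.19. In both comparisons edgeR on filtered genes called 0 of the list. The periportal markers summed to between 76299 and 86419.7 in young and between 47944 and 78438 in aged livers, with overlap. Of these 6 markers DESeq2 and edgeR on filtered genes called 0 between aged and young. Their median log2 fold change was -0.25, with 1 at an unadjusted p under 0.05. The pericentral markers (58413 to 87195 in young and 67794 to 75702 in aged livers), the Kupffer cell markers (3545 to 6432 and 3627 to 5423), the stellate cell markers (1596 to 3513 and 1935 to 3519) and the cholangiocyte markers (284.5 to 365.5 and 232.4 to 420.3) overlapped, as did the lymphocyte markers (213 to 674 and 386 to 1280.1). Of the 7 pericentral markers DESeq2 called Cyp1a2 lower than in young livers at both later ages. At an unadjusted p under 0.05 were 4 pericentral markers in aged and 2 in middle-aged against young livers. The 5 with a mean of at least 50 had median log2 fold changes of -0.36 and 0.12. In middle-aged livers the Kupffer cell markers summed to 3083 to 4093, with a median log2 fold change of -0.39 against young and 3 of 9 at an unadjusted p under 0.05, none of them called by DESeq2 or edgeR on filtered genes. The hepatocyte markers summed to 757811 to 848923 in the young, 779866 to 886723 in the middle-aged and 800367 to 1020112 in the aged group. Their median log2 fold change against young was -0.1 in aged and -0.07 in middle-aged livers. Of these 8 markers DESeq2 called 0 in aged and 0 in middle-aged against young livers, with 4 and 2 at an unadjusted p under 0.05, and edgeR on filtered genes called 0. The middle-aged stellate cell markers summed to 2131 to 4110.4, the cholangiocyte markers to 124.1 to 466.0, the lymphocyte markers to 404.1 to 2001, the pericentral markers to 64140.4 to 87355 and the periportal markers to 61629 to 79525. Shares of reads moved with age as well. Spike-ins took 3.5 to 10.6% of counts in the young group, 1.59 to 2.73% in the middle-aged group, without overlap with the young, and 1.88 to 3.51% in the aged group. Mitochondrial genes took 7.4 to 19.2%, 6.45 to 9.03% and 5.48 to 7.53%. The part of these markers and shares in the differences of Abcc2 and Abcc3 was not tested.

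The genes whose profiles over the 12 livers were nearest to a member were found by the root mean square difference of standardized log2(normalized count + 1) values, which had a median between 1.33 and 1.35 over genes. For Abcc3 they were Rcbtb1 (0.213), Acadm (0.273), the medium-chain acyl-CoA dehydrogenase of fatty acid oxidation, and Ces1e (0.295), a carboxylesterase. For Abcc2 they were the Wnt co-receptor Lrp6 (0.256), the ubiquitin ligase Nedd4 (0.273) and the kinesin Kif1b (0.274). Among the members themselves the nearest pairs were Slco1b2 with Slco2b1 (0.398) and Abcc3 with Abcb4 (0.49), and the farthest was Slco1a4 with Slc22a7 (1.81). For Slc22a7, chosen after its values were seen, the nearest were Igfbp4 (0.258), Capn8 (0.288) and Habp4 (0.326). Capn8 had 342 and 158 normalized counts in the aged livers of the first set and 23.6 and 26.8 in those of the second.

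The members were set beside 86 other genes of the same pathway, in lists of other uptake carriers, efflux pumps, canalicular transporters, regulators, scaffold genes and known targets of the regulators. Between aged and young 7 were called higher and 2 lower of 75 tested by DESeq2. Between middle-aged and young 11 were higher and 2 lower of 70, and between aged and middle-aged 0 were higher and 1 lower of 65. Over all genes tested, DESeq2 called 484 of 13527 (3.58%), 727 of 11333 (6.41%) and 117 of 10236 (1.14%) in these pairs. By edgeR on filtered genes 2, 3 and 0 of the list genes were called in these 3 comparisons, and without the 3 libraries that stand apart DESeq2 called 1, 0 and 2. The median log2 fold change of the 60 list genes with a mean of at least 50 was 0.10, 0.13 and -0.02, beside 0.014, 0.004 and 0.007 over the 8888 genes.

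Among the 25 other uptake carriers, 17 were tested between aged and young, and 4 of these were called. Slco1a1, a male-predominant carrier and neighbor of Slco1a4, fell by 0.55 on the log2 scale (SE 0.164, DESeq2 adjusted p = 0.0287). Normalized counts of Slco1a1 were 5519.7, 4404, 4815 and 4741 in the young, 3958, 3564, 3805 and 3692 in the middle-aged and 3547, 4466, 2238 and 3046 in aged livers. All middle-aged livers were below the young ones, without a call (-0.375, adjusted p = 0.148), and 1 aged liver lay inside the young range. Slc22a26, Slc22a27 and Slc22a29, related anion carriers, were called higher with means under 50 and are named after their values were seen. The bile acid carrier Slc10a1 was not called (log2 0.20, adjusted p = 0.655).

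Between middle-aged and young, 15 of the 25 were tested, and 4 of these were called. Slc22a3, an organic cation carrier, was higher by 1.21 (SE 0.271, DESeq2 adjusted p = 0.000814), and Slc22a5, the carnitine carrier, by 0.65 (SE 0.177, adjusted p = 0.00937). Slc22a30 fell by 0.42 (SE 0.104, adjusted p = 0.00363), and Slc22a29 was higher at a mean under 50. The middle-aged and young values of Slc22a3, Slc22a5 and Slc22a30 did not overlap.

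Of the 9 other canalicular transporters, the copper pump Atp7b was called higher in aged than in young livers (log2 0.80, SE 0.186, DESeq2 adjusted p = 0.00206) and in middle-aged than in young livers (0.65, SE 0.187, adjusted p = 0.0157). Its counts lay between 108 and 185 in the young group, between 212 and 293 in the middle-aged group and between 222 and 318 in the aged group. The bile salt pump Abcb11 had a log2 difference of 0.05 (adjusted p = 0.914) between aged and young. Abcb1a, a drug pump, had 11.3 ± 5.18 counts in young and 12.8 ± 5.39 in aged livers. Slc47a1 was also called between middle-aged and young. Of the 9 other sinusoidal efflux pumps, 8 had a count and 2 a mean of at least 50. DESeq2 tested 6 of the 9 between aged and young, 6 between middle-aged and young and 3 between the later ages, and called 0. At an unadjusted p under 0.05 were 2, 0 and 1 pumps in these pairs, and edgeR on filtered genes called 0. Abcc4 among them had 16.0 ± 5.87 counts in young and 18.5 ± 2.92 in aged livers.

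Of the 13 regulators, Nfe2l2, which encodes Nrf2, was called higher in aged than in young livers. Normalized counts of Nfe2l2 were 263, 279, 364 and 419.8 in young and 433, 514, 574 and 599 in aged livers, without overlap, with a log2 difference of 0.68 (SE 0.174, DESeq2 adjusted p = 0.00693). By edgeR on filtered genes the adjusted p was 0.0581. Of the 8 other targets of Nrf2, DESeq2 called 0 between aged and young, with 2 at an unadjusted p under 0.05 and 0 called by edgeR, and their median log2 fold change was 0.14. Gclm was called between middle-aged and young. Nr1i3 had 59.3 ± 21.7 counts in young and 98.4 ± 8.86 in aged livers (0.72, adjusted p = 0.0836), and Nr1i2 511 ± 49.3 and 451 ± 29.5 (-0.18, adjusted p = 0.414). Ppara, the fatty acid receptor, was called higher in middle-aged than in young livers (0.76, SE 0.247, adjusted p = 0.0393), as were Nr5a2 and Nr3c1.

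Of the 8 other targets of CAR and PXR, Cyp2b9, a female-predominant cytochrome P450, was called higher in aged than in young livers (DESeq2 adjusted p = 0.0198). The reads came from the second set: the aged livers held 1.004, 2.89, 629 and 398 normalized counts and no other liver more than 13.9. Cyp2b10 was called higher as well. The 7 of these 8 targets with a mean of at least 50 had a median log2 fold change of -0.22 between aged and young. By edgeR on filtered genes 0 of the 8 were called in that comparison. Por, the reductase that supplies electrons to cytochromes P450, was higher in middle-aged than in young livers (0.67, SE 0.175, adjusted p = 0.00579) and fell by 0.93 from middle-aged to aged livers (SE 0.175, adjusted p = 9.46e-05). Of 4 targets of the aryl hydrocarbon receptor, Cyp1a2 was lower in aged (-0.76, SE 0.16, adjusted p = 0.00037) and in middle-aged livers (-0.58, SE 0.16, adjusted p = 0.00959) than in young ones. Between middle-aged and young only 2 of these 4 targets were tested. Of the 10 scaffold and trafficking genes, which hold transporters at the membrane, DESeq2 called 1, Rdx, higher in middle-aged than in young livers, and 0 between aged and young, where 1 had an unadjusted p under 0.05 and edgeR called 0.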

How the data were processed

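Liver RNA-seq of 12 mice was analysed from the read counts per gene that the authors deposited, which were not normalized. The submitters' processing notes name STAR 2.5.2b, SAMtools 1.9, featureCounts, R 3.6.3, edgeR 3.28.1 and DESeq2 1.26.0, and the mm10 build. The table held 53465 genes and 92 spike-ins, which took 1.59 to 10.6% of counts and were left out of size factors and tests. Of the gene identifiers 53360 were found in GENCODE M21.

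The 28449 genes with a count were fitted over all 12 livers with DESeq2 1.42.0 (R 4.3.3), with Wald tests between ages, a likelihood ratio test across the 3 ages and Benjamini-Hochberg adjustment over all genes. Normalized counts are counts divided by DESeq2 size factors. Alternatives used edgeR 4.0.16 and limma 3.58.1 voom, other scalings, filters and covariates, and omitted livers. The tests were checked on simulated counts. Each library is labelled as a separate sample. A floor of 3 counts corresponds to a CPM of 0.285 to 0.369 and covers counting error only.

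The members and the gene lists were chosen with earlier results of these data known. Pathway genes with values were 9 preset ones, of which 1 is not reported here, and, per pair of ages, up to 5 called higher and 5 called lower by size among those with a mean normalized count of at least 50. Other list genes that were called are named after their values were seen. The nearest profiles were the 3 genes of smallest distance to each member called across the 3 ages.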

Additional observations from a re-analysis of the deposited data

Results flagged for a closer look

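Slco1b2 in aged replicate 1 stood far from the other aged livers, at 8969.9 normalized counts against 12032 to 12347, a gap of 0.907 of the range of the 4 livers. It was 1 such case among 27 groups of 4 livers (9 members at 3 ages), of which chance alone would give 1.35.

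The difference of Slc22a7 between aged and young livers was not the same in both spike-in sets. The second set differed from the first by -1.69 on the log2 scale (DESeq2 interaction, adjusted p = 2.06e-05), with 2 livers per age in each set.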

How the results depend on the processing

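Over 783 values of a member under an alternative in the 3 pairs of ages, 720 kept their direction and side of the threshold, 34 reversed, 22 lost and 7 gained a call. Most of these values were not called as reported. The losses were 10 of 29 alternatives for Abcc2 in middle-aged against young, and 6 of 29 for Abcc3 in each comparison with young. Across the 3 ages, which is not in the 783, Abcc2 lost its call under 13 alternatives and Abcc3 under 6. The filtered edgeR and voom fits and the omission of 3 libraries were chosen after seeing the data. Both voom fits used sample quality weights and differed only in the genes kept. Below, voom weights stands for the fit on all genes with a count, and filtered voom for the fit on filtered genes. Members called between aged and young (1 as reported) numbered 2 by edgeR on all genes, 3 in the second set, 0 with voom sample weights, edgeR on filtered genes (also with the replicate block or the set) or without the 3 libraries, and 0 to 1 when single livers were left out. Between middle-aged and young (2) they numbered 1 in either set, 0 with voom weights, the 3 filtered edgeR fits or without the 3 libraries, and 1 to 3 with single livers left out. Between aged and middle-aged (0) the second set called 1. Across the 3 ages (2) they numbered 1 without independent filtering, with the replicate block or in the first set, 0 with voom weights, the 3 filtered edgeR fits or without the 3 libraries, and 1 to 2 with single livers left out. For the interaction of age and set edgeR on all genes called 2 members (aged) and 1 (middle-aged), against 1 and 0.

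All genes called between aged and young (484 as reported) numbered 880 by edgeR, 227 with voom weights, 787 with total counts, 321 without independent filtering, 139 in the first set, 289 with only both ages, 170 by filtered edgeR (72 with the block) and 93 without the 3 libraries. Between middle-aged and young (727) they numbered 1154, 262 with voom weights, 443 without independent filtering, 251 and 306 in the sets, 1166 with only both ages, 281 by filtered edgeR (113 with the block) and 71 without the 3 libraries. Between aged and middle-aged (117) they numbered 446 by edgeR, 62 without independent filtering, 29 and 306 in the sets, 55 by filtered voom and 13 by filtered edgeR. Across the 3 ages (865) they numbered 1494 by edgeR, 367 with voom weights, 270 in the first set, 230 by filtered edgeR (95 with the block) and 184 without the 3 libraries. With total counts 82.3% and 84.1% of calls against young were higher, against 52.3% and 54.7%, with the median of all genes shifted by 0.116 and 0.109. With single livers left out, all genes called numbered 237 to 1291, 345 to 1096, 40 to 198 and 503 to 1637 in the 4 comparisons, the highest without aged replicate 1 in each. Counts also fell below the reported one by more than 1.5-fold. Between middle-aged and young such low counts came without young replicates 2 (364) and 3 (403) or middle-aged replicates 2 (345), 3 (430) and 4 (388). Between aged and middle-aged they came without any middle-aged replicate (45 to 73) or aged replicates 3 (40) and 4 (55), and across the 3 ages without young replicates 2 (503) and 3 (576) or middle-aged replicates 2 (566) and 4 (572).

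By the labels, the same replicate number at different ages belongs to different animals. Of 12 same-numbered pairs, 2 correlated above 0.1 (-0.303 to 0.159), and 1 was best with its own number. These correlations cannot show which animal a library came from. The replicate block gave 655, 385, 426 and 451 calls in the 4 comparisons.

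Reversed log2 values, none of them called as reported, were these; the cause was not tested. Between aged and young Slco2a1 was 0.003 by edgeR and TMM, 0.09 with total counts and 0.15 in the first set, Slco1a4 -0.206 and Slc22a7 0.287 in the first set, and Abcc2 -0.012 without the 3 libraries. Between middle-aged and young Abcg2 was 0.035 with total counts and 0.048 in the first set, Slco2a1 -0.032 in the first and Slco1b2 -0.022 in the second set. Between aged and middle-aged Slco1b2 was 0.033 with voom weights, 0.037 with filtered voom and 0.152 in the second set, Abcc3 -0.002 with the set as covariate and -0.2 in the first set, Slco2a1 0.182 and Slc22a7 0.639 in the first set, and Slco1a4 0.269, Slco2b1 0.034 and Abcg2 0.029 in the second. With single livers left out, aged against middle-aged gave -0.128 to 0.008 for Abcb4, -0.068 to 0.125 for Abcc3, -0.4 to 0.205 for Slc22a7 and -0.058 to 0.079 for Slco1b2, and aged against young -0.604 to 0.0 for Slc22a7 and -0.103 to 0.06 for Slco2a1.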
